A study of Mus musculus with 21 samples.

Results

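The constitutive proteasome genes were taken as every gene named Psma, Psmb, Psmc or Psmd with a number, without the immunoproteasome genes Psmb8, Psmb9 and Psmb10. The rule found 36 of the 24206 genes kept in the deposited table, and 35 of them had a mean of at least 1 RPKM (reads scaled by gene length and by library size) in each of the 2 experiments. The gene left out of all tests was Psmb11, which encodes the thymus-type beta subunit and lay between 0.0499 and 0.616 RPKM in the 21 libraries. Of the 35 genes, 15 carry 20S names (Psma and Psmb) and 20 carry 19S names (Psmc and Psmd).

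RNA was sequenced from live CD45-CD31+PDGFRb- cells, a sort for brain endothelium, of adult C57BL/6 mice of 12 to 20 weeks. All 16 libraries of the stroke experiment came from mice whose middle cerebral artery had been occluded for 1 h, followed by 1 d of reperfusion, and each library came from either the stroke (ST) or the non-stroke (NS) hemisphere. The groups named WT-NS and WT-ST were Gpr124 flox/+; ROSA-CreER+ and the groups Cko-NS and Cko-ST were Gpr124 flox/-; ROSA-CreER+, with 4 libraries each, so every library of this experiment came from a mouse with a floxed allele and an occlusion. ROSA-CreER is not restricted to endothelium, and the Cko mice carried 1 null allele in every cell. The other experiment, without occlusion, compared 3 libraries of Ctnnb1 lox(ex3)/+; Cdh5-CreER+ mice (Bcat), in which an endothelial Cre can stabilise beta-catenin, with 2 of Ctnnb1 +/+; Cdh5-CreER+ mice, called Ctnnb1 +/+ controls here. Nothing in the labels says whether libraries of a group came from separate mice, or whether both hemispheres of 1 mouse were used, so p-values measure the spread between libraries.

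The proteasome degrades proteins that carry ubiquitin chains. Its 20S core is a barrel in which outer rings of alpha subunits (Psma) gate inner rings of beta subunits (Psmb), and the peptidases Psmb5, Psmb6 and Psmb7 cut the unfolded chain. The 19S cap binds ubiquitin, removes it through the deubiquitinase Psmd14 and unfolds the substrate with a ring of ATPases (Psmc). Cells that run short of proteasome activity raise many of these genes together through the transcription factor Nrf1 (Nfe2l1), which binds antioxidant response elements in their promoters, and immune signals exchange the peptidases for Psmb8, Psmb9 and Psmb10.

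The promoters of 4 genes that rose after stroke are shown. Psmd14 was chosen for the lowest p of the family in WT. The other 3 also rose in WT and were chosen because they hold the core of the antioxidant response element. Each line gives the 250 bases before the start in RefSeq (GRCm38.p6), on the plus strand. Capitals mark matches on either strand to the antioxidant response element core TGACNNNGC, to CCAAT or to the ETS motif CCGGAAG.
Psmd14 (chr2:61711444-61711693): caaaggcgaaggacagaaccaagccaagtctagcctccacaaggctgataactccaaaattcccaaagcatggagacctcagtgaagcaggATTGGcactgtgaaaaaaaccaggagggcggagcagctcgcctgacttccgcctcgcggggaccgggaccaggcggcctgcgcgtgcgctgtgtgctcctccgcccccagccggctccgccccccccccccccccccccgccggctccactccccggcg
Psmb6 (chr11:70525107-70525356): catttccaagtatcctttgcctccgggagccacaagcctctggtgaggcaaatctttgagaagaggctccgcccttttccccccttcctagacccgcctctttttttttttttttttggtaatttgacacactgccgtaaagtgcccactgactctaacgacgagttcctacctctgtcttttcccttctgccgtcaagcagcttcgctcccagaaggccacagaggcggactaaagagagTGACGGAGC
Psmd12 (chr11:107479278-107479527): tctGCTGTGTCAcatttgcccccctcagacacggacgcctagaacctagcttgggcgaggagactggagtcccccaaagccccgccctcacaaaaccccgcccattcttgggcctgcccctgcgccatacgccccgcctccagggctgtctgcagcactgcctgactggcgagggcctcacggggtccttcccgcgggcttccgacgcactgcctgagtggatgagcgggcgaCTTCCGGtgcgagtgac
Psmc6 (chr14:45329574-45329823): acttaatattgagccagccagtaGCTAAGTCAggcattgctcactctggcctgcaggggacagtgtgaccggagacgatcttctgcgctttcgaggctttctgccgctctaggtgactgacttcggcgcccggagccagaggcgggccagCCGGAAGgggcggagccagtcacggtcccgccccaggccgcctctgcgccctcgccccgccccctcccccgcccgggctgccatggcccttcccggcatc
In Psmb6 the antioxidant response element core began at base 242, directly before the start. It lay on the minus strand in Psmd12, from base 4, and in Psmc6, from base 24. The Psmd14 window had no such core but a reversed CCAAT at base 92. Psmd12 and Psmc6 also held an ETS match.

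Motifs were counted in the longer RefSeq window of 250 bases before to 50 bases after the start, which the table gave for 28 of the 35 genes in 30 promoters. The antioxidant response element core stood in 5 genes (Psmb5, Psmb6, Psmc6, Psmd9 and Psmd12), or 16.7% of their promoters against 12.4% of all 32851 promoters of that length. CCAAT stood in 36.7% against 37.4% of all, and the Sp1 motif GGGCGG in 60% against 35.7%. ETS matches stood in 36.7% of proteasome promoters, in 10 genes, against 8.86% of all. Of the genes with a promoter, 16 rose after stroke in WT or Cko and 12 did not, and the ETS motif was in 4 of the former and 6 of the latter. The antioxidant response element core was in 3 of the 16 and 2 of the 12, CCAAT in 6 and 5, and the Sp1 motif in 11 and 7. Both strands were searched and each motif was counted on its own, also where matches of different motifs overlap. A match is a string of letters and not an occupied site. The 35 genes lie on 16 chromosomes, among them Psmd14 at chr2:61711694-61800376 on the plus strand and Psmb7 at chr2:38588036-38644087 on the minus strand (GENCODE M21, GRCm38).

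**Figure D1:**
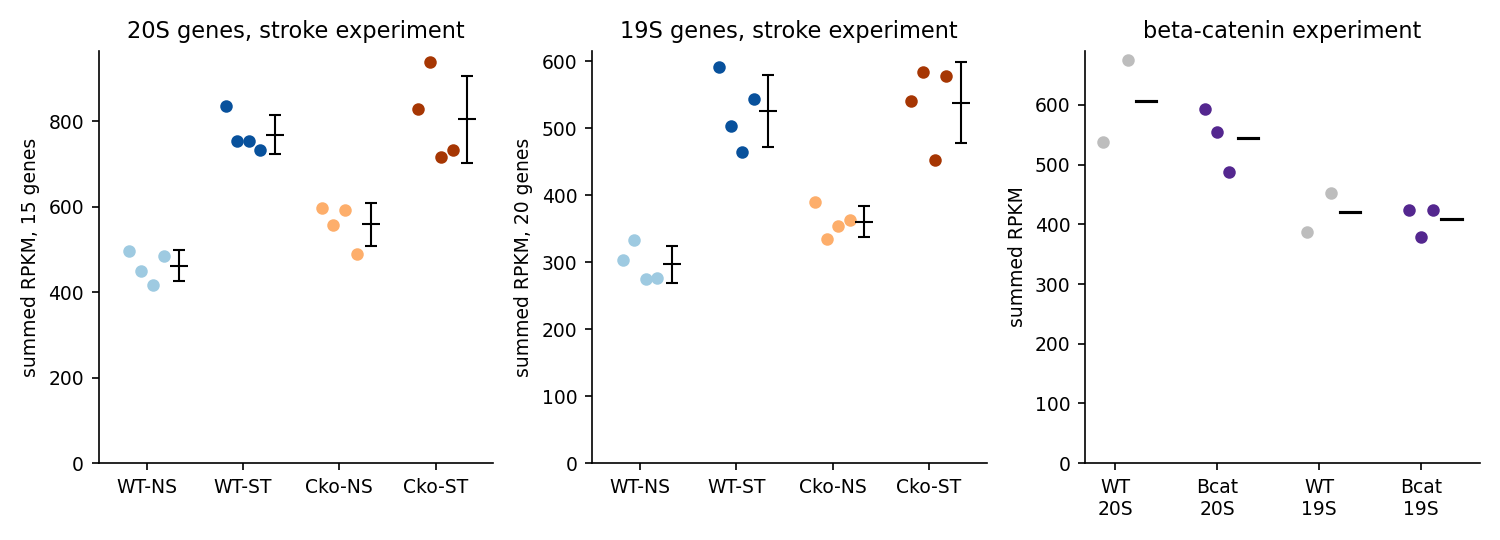
Summed RPKM of the 15 20S genes (left) and the 20 19S genes (middle) in the 16 stroke libraries, and both sums in the beta-catenin experiment (right), in RPKM. Points are libraries, black marks the mean with SD (the mean alone on the right); every ST library lies above every NS library of its genotype, and the Bcat and control sums overlap.

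After stroke the summed RPKM of the family stood higher in both genotypes. The RPKM of the 35 genes summed to 799, 783, 692 and 762 in the WT-NS libraries and to 1426, 1257, 1219 and 1277 in WT-ST. In Cko-NS the sums were 987, 892, 946 and 852, and in Cko-ST they were 1369, 1522, 1168 and 1312. The ST and NS libraries did not overlap in either genotype. Group means were 759 ± 47.1 (SD, n = 4) in WT-NS, 1295 ± 90.9 in WT-ST, 919 ± 59.3 in Cko-NS and 1343 ± 147 in Cko-ST. Both parts of the particle took part, as the plot of summed RPKM shows. The 20S sum went from 462 ± 35.6 to 769 ± 45.2 in WT and from 559 ± 49.6 to 804 ± 102 in Cko, and the 19S sum from 297 ± 27.7 to 526 ± 54.1 and from 360 ± 23.2 to 539 ± 60.8. The ratio of the 20S to the 19S sum overlapped between hemispheres, at 1.35 to 1.76 in WT-NS, 1.35 to 1.62 in WT-ST, 1.35 to 1.67 in Cko-NS and 1.27 to 1.61 in Cko-ST. These sums are descriptions and were not tested. The stroke libraries were made from the 3′ ends of transcripts while RPKM divides by gene length, so levels of different genes, unlike changes of 1 gene, carry that division. On this scale Psma6, an alpha-ring gene, was the most abundant at a mean of 80.7 RPKM over the 16 libraries, and the lid gene Psmd13 the least, at 3.24.

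Single genes were tested with limma on log2(RPKM + 1), with Benjamini-Hochberg adjustment over all 9838 genes tested and a gene called at an adjusted p under 0.05. In WT 17 of the 35 proteasome genes rose after stroke and none fell, where 8.46% of all genes tested rose and 4.84% fell. An unadjusted p under 0.05 was reached by 26 of the 35 and by 2669 of all 9838 genes. All 35 log2 fold changes were above 0, as were 4998 of all 9838. Their median was 0.76 against 0.01 over all genes tested. By library, 22 of the 35 genes had every WT-ST value above every WT-NS value, which held for 11.9% of all genes tested. In Cko 14 rose and none fell, against 6.44% and 8.71% of all genes tested. An unadjusted p under 0.05 was reached by 22 of the 35 and by 2869 of all 9838 genes. There the median was 0.57 against -0.13 over all genes. Of the 35 fold changes 30 were above 0, as were 4073 of all 9838, and 15 genes were separate by library, against 7.4% of all genes. The Cko count rests on more than 1 library: it was 5 without the library labelled Cko-ST 1 or without Cko-ST 2, 7 without Cko-NS 2, and 9 without Cko-NS 1, Cko-NS 3 or Cko-ST 4, and 6 when its 8 libraries were fitted alone, with the count in WT at 19 in that fit.

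The 2 stroke comparisons share no library, but they were fitted together, so each gene's estimate of the spread is common to both. The 9 genes that rose in both were Psmb3, Psmb4, Psmb6, Psmb7, Psmc3, Psmc6, Psmd1, Psmd3 and Psmd14, which is 52.9% of those that rose in WT and 64.3% of those that rose in Cko, where 4.53% of all genes tested rose in both. With a replicate block nested within genotype, which bears on Cko because its numbers were taken as paired, Psmc6 dropped out of the genes called in both and Psma4, Psmd7 and Psmd12 came in. Without the block, another 8 passed in WT but not in Cko and 5 in Cko but not in WT, and 13 passed in neither. The difference between the genotypes' stroke effects was itself tested and is given further on.

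**Figure D2:**
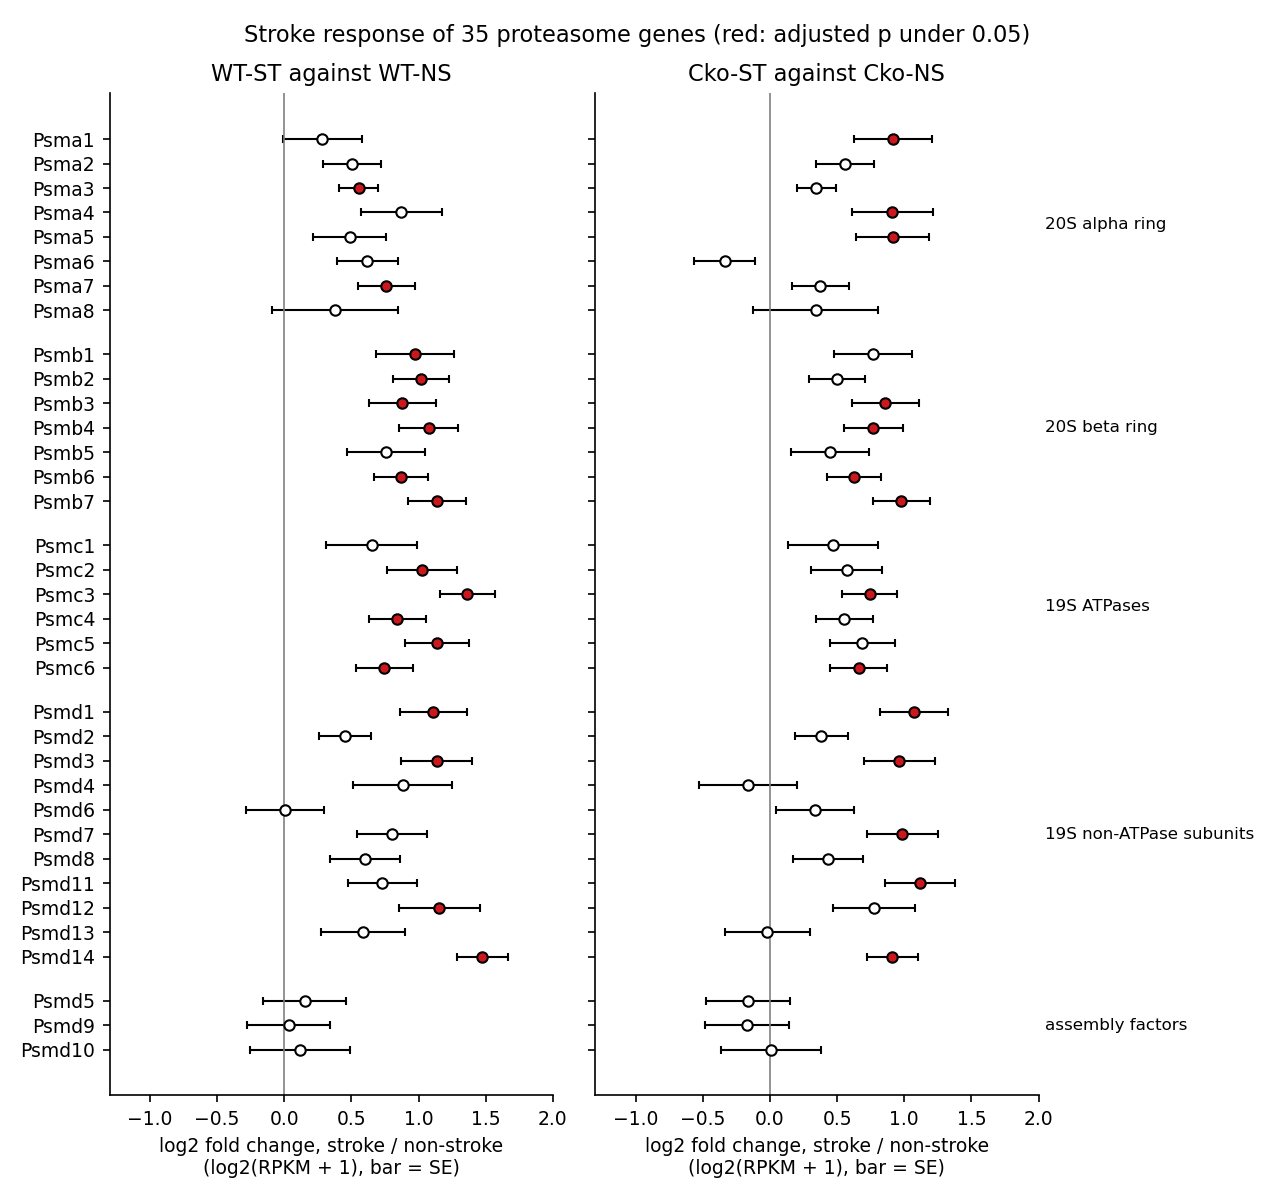
Log2 fold change after stroke (x axis, log2(RPKM + 1) scale) with its SE for the 35 proteasome genes in WT (left) and Cko (right), grouped by role. Red points passed an adjusted p under 0.05 (17 in WT, 14 in Cko); beta-ring and ATPase genes lie to the right in both panels and the 3 assembly factors lie near 0.

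Among the 20S genes the beta ring, which holds the peptidases, gave the most calls. In WT 6 of its 7 tested genes rose (median log2 fold change 0.97) and in Cko 4 (median 0.77). Of these 4 Cko calls, Psmb7 held in 17 of 17 alternative settings, while Psmb3, Psmb4 and Psmb6 were all lost without Cko-ST 1 and again without Cko-ST 2. Psmb7, the trypsin-like peptidase, was listed at 46, 51, 49.9 and 46.7 RPKM in WT-NS and at 127, 95.4, 107 and 104 in WT-ST. The groups stood well apart, and the log2 fold change was 1.14 ± 0.21 (SE; limma adjusted p = 0.00157). In Cko-NS it was 48.4, 50.4, 37.2 and 85.3, and in Cko-ST 113, 137, 88.3 and 88.6, so that the highest NS library nearly met the lowest ST libraries (0.98 ± 0.21, adjusted p = 0.00448). Exons of Psmb7 overlap those of Nek6 on the other strand, and whether the counting used strand is not given in the sources used here.

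Psmb6, the caspase-like peptidase, had 20.7, 18.4, 15.9 and 10.8 RPKM in WT-NS and 34.4, 28.5, 30.5 and 27.6 in WT-ST. It was 19.4, 21.7, 21.2 and 27 in Cko-NS and 29.9, 40.8, 33 and 36.2 in Cko-ST. Both pairs of groups were separate, and Psmb6 rose by a log2 fold change of 0.87 ± 0.20 in WT (adjusted p = 0.0068) and 0.63 ± 0.20 in Cko (adjusted p = 0.0428). Psmb5, the chymotrypsin-like peptidase and the main target of proteasome inhibitor drugs, was listed at 22.8, 15.6, 27.8 and 29.4 in WT-NS and 42.5, 35.1, 35 and 49 in WT-ST. Its Cko values were 13, 27.6, 31.4 and 25.3 in NS and 39.4, 43.8, 31.3 and 19.2 in ST. The WT groups did not overlap and the Cko groups did, and neither comparison passed (0.76 ± 0.29, adjusted p = 0.0918, and 0.45 ± 0.29, adjusted p = 0.32). GENCODE names pseudogenes of Psmb5, Psmb6 and Psmb7, and how reads shared with such copies were assigned is not given, so the levels of these 3 are uncertain to that extent.

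The 4 structural beta subunits tested all rose in WT. Psmb2 had 18.8, 19.7, 14.9 and 17.1 RPKM in WT-NS and 50.1, 36.9, 29.8 and 32.2 in WT-ST, without overlap (log2 fold change 1.02 ± 0.21, adjusted p = 0.00281). In Cko its change of 0.50 ± 0.21 did not pass (adjusted p = 0.114). Psmb4 had 17.5, 16.1, 17.2 and 13.4 in WT-NS and 36.8, 41.9, 28.5 and 33.1 in WT-ST. It rose by 1.07 ± 0.22 on the log2 scale in WT (adjusted p = 0.00311) and by 0.77 ± 0.22 in Cko (adjusted p = 0.0253). Psmb3 rose in both genotypes as well (0.88 ± 0.25 and 0.86 ± 0.25), and Psmb1 in WT (0.97 ± 0.29, adjusted p = 0.0331). In WT the Psmb1 call was lost in 7 of 17 alternative settings and the Psmb3 call in 3, while Psmb2 and Psmb4 were kept in all.

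The alpha ring, which forms the gate of the barrel, gave fewer calls. In WT 2 of its 8 genes rose (median 0.53), namely Psma3 and Psma7, and in Cko 3 did (median 0.47), namely Psma1, Psma4 and Psma5, so none of the 8 was called in both. The nested replicate block called Psma4 in both genotypes and lost Psma1 in Cko, and all 3 Cko calls were lost without Cko-ST 1 and again without Cko-ST 2. Psma3, the most deeply covered member with an estimated median of 1984 reads per stroke library, was 57.1, 54.6, 45 and 46.8 RPKM in WT-NS and 71, 85.3, 67.5 and 76.8 in WT-ST. The groups were separate but the change was small, at 0.56 ± 0.14 (adjusted p = 0.0149). Psma5 had 8.11, 11.2, 9.74 and 11.5 in Cko-NS and 19.2, 23.4, 16.3 and 21.1 in Cko-ST, again without overlap (0.91 ± 0.27, adjusted p = 0.0293). Exons of Psma4 overlap AY074887 and those of Psma5 overlap 1700010K24Rik, both on the other strand. Psma8, the alpha subunit known from testis, was detected in all libraries at 1.01 to 24.9 RPKM in the stroke experiment, and its stroke changes of 0.38 ± 0.47 and 0.34 ± 0.47 were smaller than their errors.

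In the 19S cap the ATPases, which unfold the substrate, rose in 5 of 6 cases in WT (median 0.94) and in 2 of 6 in Cko (median 0.62). Psmc3 stood at 9.84, 10.8, 13.7 and 11.3 RPKM in WT-NS and at 36.8, 26, 25.5 and 36.4 in WT-ST. All WT-ST libraries were far above WT-NS, with a log2 fold change of 1.36 ± 0.20 (adjusted p = 2.19e-04). In Cko it went from 17.8, 17.5, 15.5 and 24.3 to 32.2, 37.4, 25 and 33.4, where the lowest ST library was just above the highest NS library (0.74 ± 0.20, adjusted p = 0.02). Exons of Psmc3 overlap Slc39a13 on the other strand.

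Psmc5 had 4.42, 2.95, 3.55 and 3.29 RPKM in WT-NS and 10.9, 8.53, 7.2 and 9.5 in WT-ST (1.14 ± 0.24, adjusted p = 0.00369). Psmc2 (1.03 ± 0.26, adjusted p = 0.0135) and Psmc4 (0.84 ± 0.21, adjusted p = 0.0122) rose in WT, and their Cko changes of 0.57 ± 0.26 and 0.55 ± 0.21 did not pass. Psmc6 rose in both genotypes (0.75 ± 0.21, adjusted p = 0.0254, and 0.66 ± 0.21, adjusted p = 0.0424). The Psmc6 call was lost in 5 of 17 alternative settings in WT and in 10 of 17 in Cko. Psmc1 was the ATPase gene that passed in neither comparison (0.65 ± 0.34 and 0.47 ± 0.34).

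Of the 11 non-ATPase subunits of the cap, 4 rose in WT (median 0.80) and 5 in Cko (median 0.78). Psmd14, the deubiquitinase that frees the substrate of its chain, had the lowest p of the family in both genotypes. Its values were 12.8, 12.2, 17.8 and 12.1 RPKM in WT-NS and 41.9, 38.4, 39.1 and 39 in WT-ST. In Cko-NS they were 25, 17.8, 17.9 and 16.3, and in Cko-ST 45, 37.1, 32 and 33.7. The 4 WT-ST libraries agreed closely and lay more than the whole NS range above WT-NS. The log2 fold change was 1.48 ± 0.19 in WT (adjusted p = 4.48e-05) and 0.91 ± 0.19 in Cko (adjusted p = 0.00302).

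Psmd1, a scaffold of the base, had 5.85, 10.1, 6.64 and 11.2 RPKM in WT-NS and 20.6, 16.7, 17.8 and 20.4 in WT-ST. In Cko it had 13, 10.1, 9.46 and 9.66 in NS and 23.3, 23.8, 15.1 and 34.1 in ST. The groups were separate in both genotypes, and the changes were close in size, at 1.11 ± 0.25 (adjusted p = 0.0058) and 1.07 ± 0.25 (adjusted p = 0.00685). The lid gene Psmd3 likewise rose in both (1.13 ± 0.26, adjusted p = 0.00738, and 0.96 ± 0.26, adjusted p = 0.0198). Exons of Psmd1 overlap Htr2b and Gm21972, and those of Psmd3 overlap Gm12356.

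The lid gene Psmd11 showed the largest change of the family in Cko, from 3.22, 3.87, 2.89 and 4.04 RPKM in NS to 7.79, 7.82, 8.76 and 10.8 in ST (1.12 ± 0.26, adjusted p = 0.00655). In WT it was 5.35, 3.51, 3.13 and 6.24 against 10.1, 8.04, 9.27 and 5.32, with overlap in 1 library (0.73 ± 0.26, adjusted p = 0.0699). Psmd7, the partner of Psmd14 in the lid, rose in Cko by 0.99 ± 0.26 (adjusted p = 0.0164) and was just short of the threshold in WT (0.80 ± 0.26, adjusted p = 0.0502). Psmd12 rose in WT, from 16.5, 21.1, 23.3 and 27.3 to 59.5, 46.6, 42 and 51.8 (1.16 ± 0.30, adjusted p = 0.0162), and in Cko its change of 0.78 ± 0.30 did not pass.

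Some 19S genes stood apart, chosen here after their values were seen. Psmd6, a lid gene, was listed at 62.2, 51.2, 31.2 and 27.6 RPKM in WT-NS and 43.2, 50.4, 36.5 and 35.3 in WT-ST, and its log2 fold changes were 0.01 ± 0.29 and 0.33 ± 0.29. The 3 genes with 19S names that encode assembly factors of the ATPase ring, which leave the finished particle, had a median of 0.12 in WT and -0.16 in Cko, and none passed. Their WT changes were 0.15 ± 0.31 for Psmd5, 0.03 ± 0.31 for Psmd9 and 0.12 ± 0.37 for Psmd10, and those in Cko were -0.16 ± 0.31, -0.17 ± 0.31 and 0.01 ± 0.37. No test set these 3 against the other genes.

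**Figure D3:**
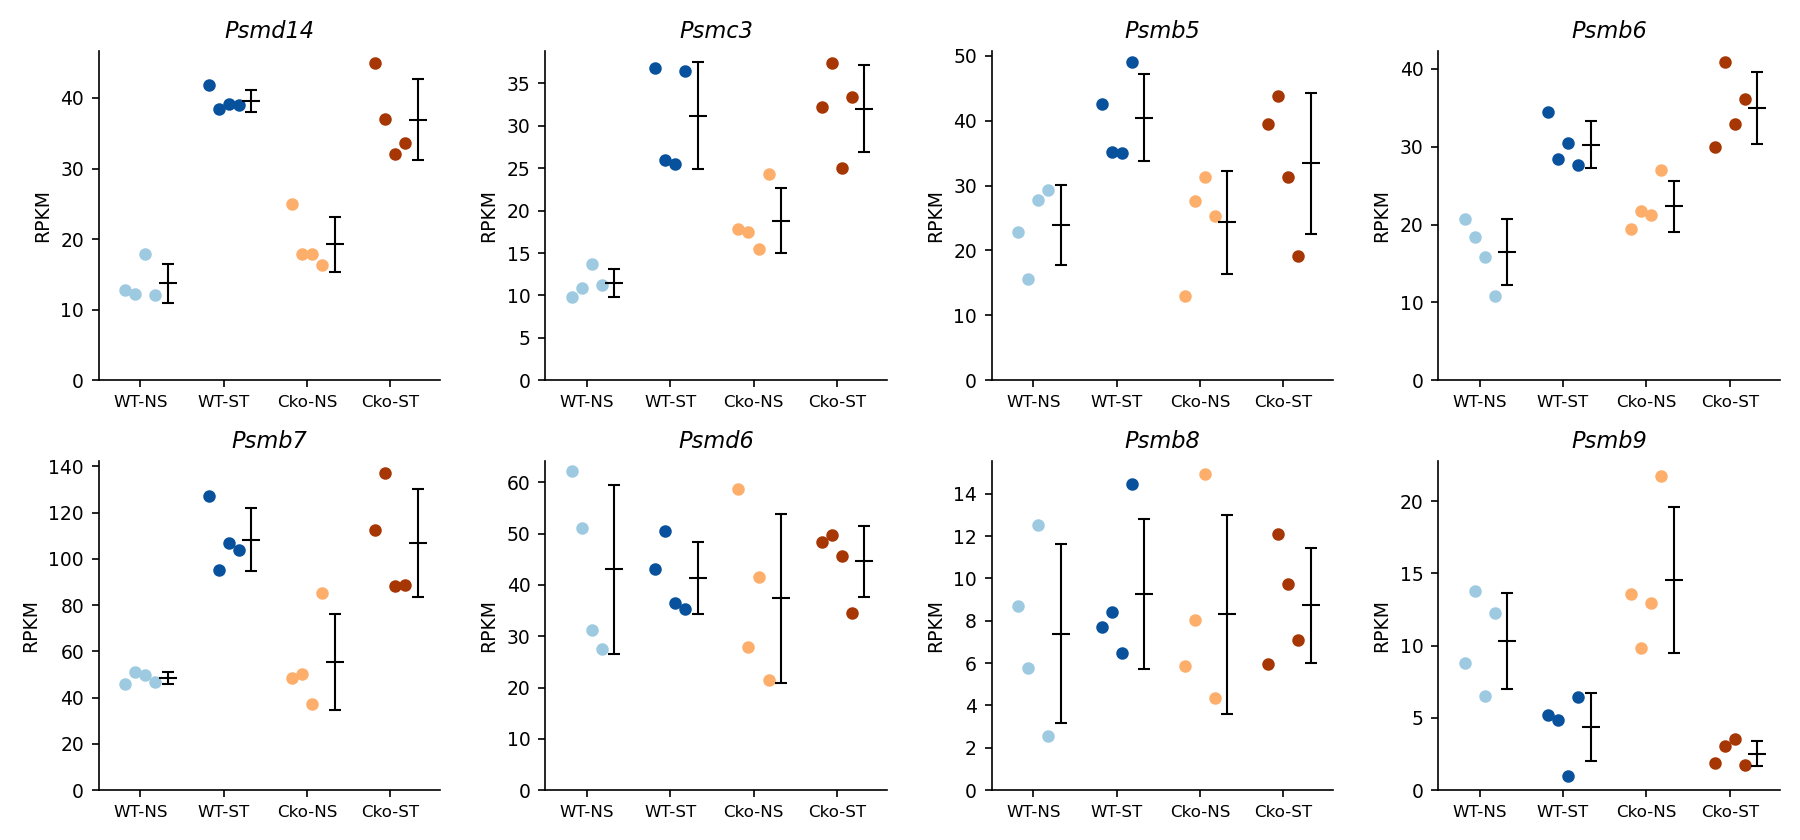
RPKM (y axis, from 0) in each library of the 4 stroke groups for Psmd14, Psmc3, the constitutive peptidase genes Psmb5, Psmb6 and Psmb7, the lid gene Psmd6, and the immunoproteasome genes Psmb8 and Psmb9. Points are libraries and black marks mean and SD (n = 4); ST is above NS for Psmd14, Psmc3, Psmb6 and Psmb7, mixed with it for Psmd6 and Psmb8, and below it for Psmb9.

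The immunoproteasome genes did not follow. Psmb9, which replaces Psmb6 in the immunoproteasome, was 8.8, 13.8, 6.48 and 12.3 RPKM in WT-NS and 5.21, 4.86, 0.995 and 6.42 in WT-ST. In Cko it went from 13.6, 9.86, 13 and 21.8 to 1.85, 3.03, 3.52 and 1.73. Every ST library was below every NS library of its genotype, and Psmb9 fell in WT by a log2 fold change of -1.18 ± 0.38 (adjusted p = 0.0454) and in Cko by -2.12 ± 0.38 (adjusted p = 9.24e-04). The WT call was lost in 9 of 17 alternative settings, with adjusted p from 0.0211 to 0.148, and the Cko call in none of 17. Psmb8, the counterpart of Psmb5, changed by 0.39 ± 0.40 and 0.15 ± 0.40, and Psmb10, that of Psmb7, by -0.42 ± 0.41 and -0.43 ± 0.41, none of which passed. Exons of Psmb9 overlap Tap1, and those of Psmb8 overlap Gm20496, on the other strand.

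Genes that build or service the particle moved in part. Among the 5 assembly chaperones of the core 1 rose in each genotype, Pomp, which matures the beta ring. Its RPKM was 159, 156, 153 and 98.1 in WT-NS and 219, 236, 194 and 276 in WT-ST, and 195, 215, 184 and 209.7 against 270, 315, 269 and 287 in Cko. ST libraries were higher throughout (0.72 ± 0.16, adjusted p = 0.00562, and 0.50 ± 0.16, adjusted p = 0.0425, lost in 13 of 17 alternative settings in Cko). Of 5 measured genes for other proteasome-bound proteins, 2 rose in WT and 1 in Cko. Usp14, a deubiquitinase of the cap, rose in both, by 1.07 ± 0.24 (adjusted p = 0.00505) and 1.21 ± 0.24 (adjusted p = 0.00197). Exons of Usp14 overlap Thoc1 on the other strand. Adrm1, a ubiquitin receptor, had 11.6, 12.4, 9.22 and 5.17 RPKM in WT-NS and 36.3, 26.1, 15.3 and 25.8 in WT-ST (1.34 ± 0.38, adjusted p = 0.0246, lost in 5 of 17 alternative settings), while in Cko it was already at 14.9 to 59.7 in NS and its change was 0.03 ± 0.38.

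None of the 5 activator and inhibitor genes passed in either genotype. The most abundant, Psme1, changed by 0.74 ± 0.42 and 0.31 ± 0.42, and Psme2, its partner in the PA28 cap, by 0.26 ± 0.29 and 0.33 ± 0.29. The genes of the Nrf1 pathway gave no call among 5. Nfe2l1, which encodes Nrf1, was 17.1, 25.9, 22 and 31.9 RPKM in WT-NS and 23.1, 21.6, 28.8 and 28.9 in WT-ST (0.10 ± 0.25), and changed by -0.28 ± 0.25 in Cko. Nfe2l2, which encodes Nrf2, changed by 0.47 ± 0.23 and 0.27 ± 0.23. Nrf1 is controlled largely after translation, which RNA levels do not measure.

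Upstream of the proteasome, Rps27a, a ubiquitin and ribosomal protein fusion, rose in WT by 0.97 ± 0.26 (adjusted p = 0.0179, lost in 4 of 17 alternative settings), and its change in Cko of 0.14 ± 0.26 did not pass. Ubb, a gene of ubiquitin repeats, changed by 0.34 ± 0.15 in WT (adjusted p = 0.146) and 0.21 ± 0.15 in Cko, and did not pass in either. Of 9 measured genes for ubiquitin activation, shuttling and p97, 3 rose in WT. They were the shuttle Rad23b (1.23 ± 0.27, adjusted p = 0.00431), Vcp, which encodes the p97 unfoldase (1.01 ± 0.29, adjusted p = 0.0277), and the shuttle Ubqln1 (0.89 ± 0.29, adjusted p = 0.0488). The Ubqln1 call was lost in 10 of 17 alternative settings (adjusted p from 0.0185 to 0.128) and the Vcp call in 6 (0.0108 to 0.0827), while that of Rad23b was kept in 17 of 17. None of the 9 passed in Cko, where Rad23b changed by 0.74 ± 0.27 (adjusted p = 0.0694) and Ubqln2 by -0.12 ± 0.23. Exons of Rps27a overlap Clhc1 and those of Vcp overlap 1700022I11Rik, both on the other strand.

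**Figure D4:**
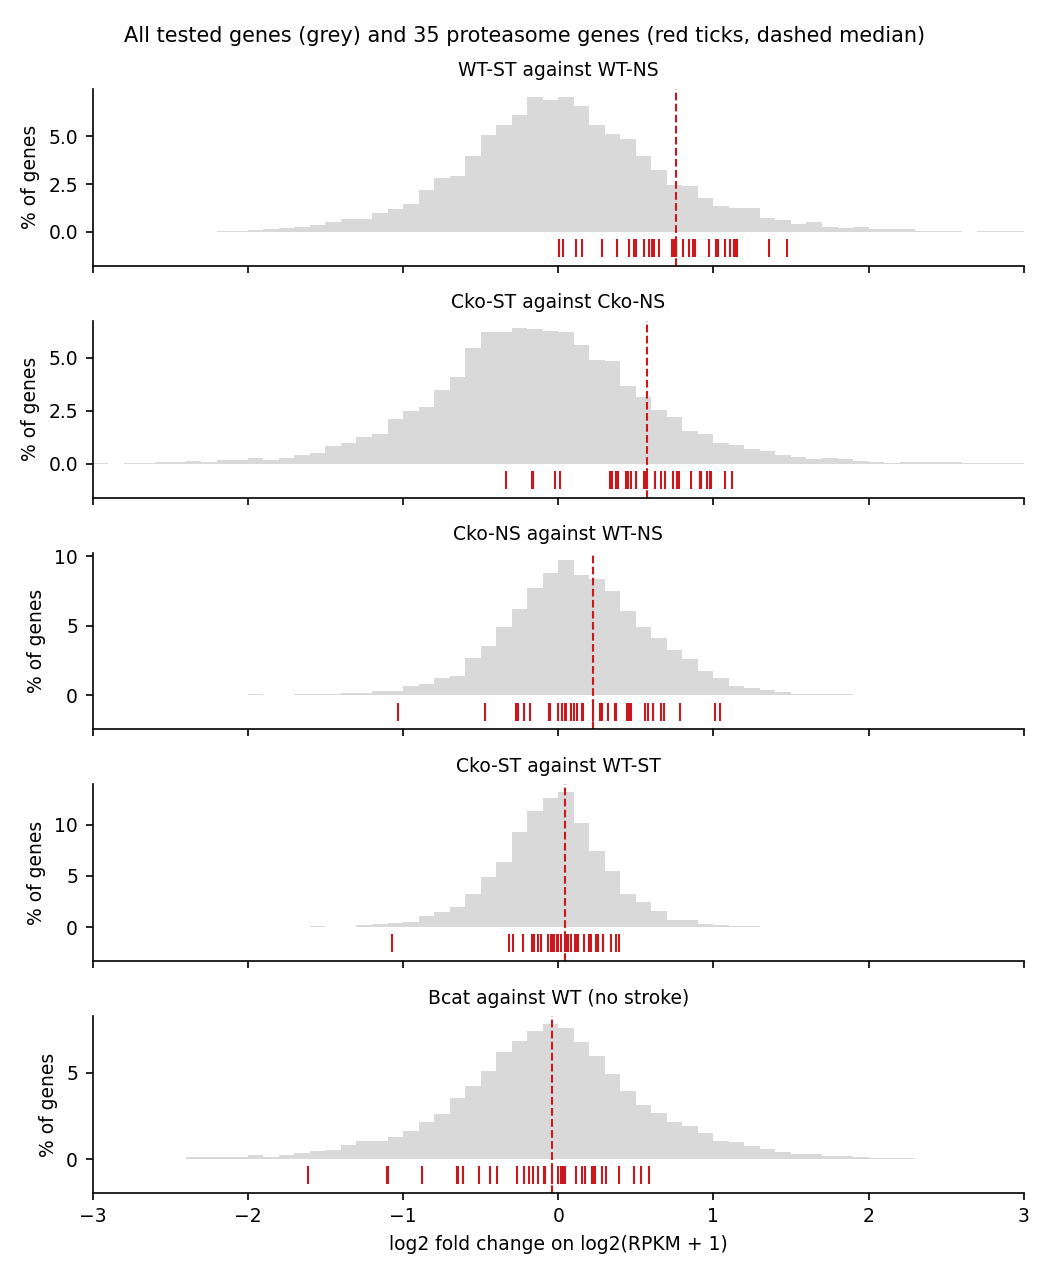
Distribution of the log2 fold change (x axis, log2(RPKM + 1) scale) of all genes tested (grey, percent of genes) with the 35 proteasome genes as red ticks and their median as a dashed line, for 5 comparisons. The ticks lie to the right after stroke (medians 0.76 and 0.57). They lie somewhat to the right for Cko against WT in the non-stroke hemisphere (0.22, all genes 0.11). In the other 2 comparisons they lie around 0.

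Between Cko and WT no proteasome gene passed the threshold. In the non-stroke hemisphere 0 of 35 were called in limma, against 0.315% of all genes tested. An unadjusted p under 0.05 was reached by 12 of the 35 and by 1405 of all 9838 genes. The median log2 fold change was 0.22 (all genes 0.11), and 26 of 35 were above 0, as were 5956 of all 9838. The summed RPKM of the 35 genes was higher in each Cko-NS library (852 to 987) than in each WT-NS library (692 to 799). These sums use RPKM as deposited. With median-of-ratios scaling the median log2 fold change of the 35 became 0.09 (all genes -0.006). The largest changes were in Psmd4, a ubiquitin receptor of the cap (1.04 ± 0.37), Psma8 (-1.04 ± 0.47), Psma6 (1.01 ± 0.23) and Psmc5 (0.79 ± 0.24). Psma6 had 69.2, 56.3, 34 and 51.3 RPKM in WT-NS and 153, 87.8, 124 and 70.6 in Cko-NS. All Cko-NS libraries were above all WT-NS libraries, and the adjusted p was 0.0583. It became 0.0228 without the library labelled Cko-NS 4, whose sex-linked RNA goes against its label, and the change was then 1.20.

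In the stroke hemisphere 0 of 35 were called, against 0% of all genes tested. An unadjusted p under 0.05 was reached by 476 of all 9838 genes and by 1 of the 35, Psma8. It stood at 24.9, 13.2, 14 and 8.03 RPKM in WT-ST and at 13.6, 7.94, 8.66 and 1.01 in Cko-ST, overlapping (-1.07 ± 0.47, adjusted p = 0.994). The next largest changes were 0.39 ± 0.21 for Psmc4, 0.38 ± 0.29 for Psma1 and 0.34 ± 0.24 for Psmc5, and the median of the 35 was 0.04 (all genes -0.03). For Psmd14 the difference between Cko-ST and WT-ST was -0.11 ± 0.19 and for Psmb7 it was -0.04 ± 0.21.

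The stroke effect itself did not differ between the genotypes past the threshold for any of the 35 genes in limma, and 0% of all genes tested passed. Of the 35, 3 had an unadjusted p under 0.05 (Psma6, Psmc3 and Psmd14), as did 691 of all 9838 genes. The median difference of Cko minus WT was -0.20 (all genes -0.14). With median-of-ratios scaling the median of the 35 became -0.04 (all genes 0.0047). The largest differences were -1.05 ± 0.52 for Psmd4, -0.96 ± 0.32 for Psma6 (adjusted p = 0.681), 0.63 ± 0.41 for Psma1 and -0.62 ± 0.29 for Psmc3. Psma6 was 72.9, 82.3, 83.2 and 78 RPKM in WT-ST and 81.1, 90.5, 82.3 and 75.4 in Cko-ST, where the groups overlapped. For Psmd14 the difference was -0.57 ± 0.27 and for Psmb7 -0.16 ± 0.30. The calls that passed in 1 genotype and not in the other are therefore not shown to differ. All 3 kinds of comparison draw on the same 16 libraries, and those between genotypes share groups with those between hemispheres.

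Stabilised beta-catenin changed no proteasome gene past the threshold either. In limma 0 of 35 were called, against 0% of all 11252 genes tested. An unadjusted p under 0.05 was reached by 3 of the 35 and by 590 of all 11252. The summed RPKM was 1018, 934 and 911 in the Bcat libraries and 926 and 1128 in the Ctnnb1 +/+ controls, so the groups overlapped. The median log2 fold change was -0.04 (all genes -0.06), with 16 above 0 and 19 below. The 3 genes with an unadjusted p under 0.05 were Psmb1, Psmb4 and Psmb3, and none passed adjustment. Psmb1 was 25.5, 11.2 and 9.76 RPKM in Bcat and 30.8 and 32.1 in the controls (-1.10 ± 0.43, adjusted p = 0.911). Psmb4 was 51.2, 54.6 and 39.6 against 70.2 and 78.1 (-0.61 ± 0.26). Psmb3 was 12, 16.2 and 4.88 against 14.7 and 70.4 (-1.61 ± 0.66), where 1 control library was at 70.4 and the other lay within the Bcat range.

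The other large Bcat changes were -1.09 ± 0.61 for Psmd13 and -0.88 ± 0.67 for Psmd5. Psmb5 changed by 0.23 ± 0.46, Psmb6 by 0.11 ± 0.46, Psmb7 by 0.24 ± 0.32 and Psmd14 by 0.05 ± 0.51. With 3 against 2 libraries the SE of the 35 changes ran from 0.26 (Psma6) to 0.98 (Psmd10), against 0.14 (Psma3) to 0.47 (Psma8) for stroke in WT. In this experiment, made from total RNA with another kit, Psma6 was again the most abundant of the 35 (80.4 RPKM) and Psmd9 the least (4.63). Psmb9 was 43, 7.25 and 23.1 in Bcat and 50.6 and 43.7 in the controls (-1.22 ± 0.59, adjusted p = 0.957), Psmb8 changed by -0.39 ± 0.48 and Psmb10 by -0.62 ± 0.64.

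Across the 16 stroke libraries most of the 35 genes ran together. The correlation of each gene with the mean of the standardised values of all 35, which includes the gene itself, was highest for Psmb2 (r = 0.954), Psmc3 (0.926), Psmd14 (0.922) and Psmb4 (0.907). It was lowest for Psmd9 (-0.04), Psmd10 (0.09), Psmd5 (0.09), Psma8 (0.16) and Psmd6 (0.24). Outside the family the 5 genes closest to that mean were Ifitm3 (r = 0.967), an interferon-induced membrane protein, the translation initiation helicase Eif4a1 (0.963), the tubulin Tubb6 (0.954), the membrane repair gene Dysf (0.951) and Gm10653 (0.947). Each of these rose after stroke in both genotypes, Tubb6 by 3.29 ± 0.32 and 2.50 ± 0.32 and Eif4a1 by 1.38 ± 0.15 and 1.29 ± 0.15. The points come from 4 groups that differ in hemisphere and genotype, so the correlations carry the group differences. The rise of these 5 genes after stroke follows in large part from how they were chosen and is no separate result.

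Several properties of the libraries bear on these values. The 8 endothelial markers, Cldn5 and Pecam1 among them, were found in all groups and summed to 901 to 1068 RPKM in WT-NS, 1070 to 1411 in WT-ST, 1208 to 1327 in Cko-NS and 1166 to 1338 in Cko-ST. They were thus higher with stroke in WT and overlapped in Cko, where the proteasome sum was separate. The 6 oligodendrocyte markers summed to 186 to 1020 RPKM in WT-NS, 29.8 to 376 in WT-ST, 44.6 to 531 in Cko-NS and 20.9 to 277 in Cko-ST, none of them at 0 throughout a group. Leukocyte markers (5 of 6 found) summed to 0 to 7.63, 2.04 to 42.6, 8.89 to 83.3 and 4.29 to 19.5 in the same order, with Cd3e at 0, and red cell and platelet markers ranged from 578 to 15341 over the 16 libraries. The 6 neuron markers summed to 15.9 to 26.3 RPKM in WT-NS, 9.91 to 20.2 in WT-ST, 11.0 to 59.7 in Cko-NS and 5.10 to 7.70 in Cko-ST, and thus stood lower with stroke in every Cko library. The 8 mural markers summed to 45.3 to 66.9 in WT-NS, 11.3 to 48.6 in WT-ST (Kcnj8 at 0), 23.3 to 32.5 in Cko-NS and 14.7 to 103 in Cko-ST, overlapping in both genotypes. The 6 microglia and macrophage markers summed to 0.677 to 78.5 in WT-NS and 0.0653 to 0.948 in WT-ST (Tmem119 at 0). They summed to 0.808 to 7.31 in Cko-NS and 0.289 to 1.23 in Cko-ST (Tmem119 at 0). Of the 78.5, 76.7 was Aif1 in WT-NS 4. P2ry12 was lower in every WT-ST library than in WT-NS but overlapped in Cko. Aif1, Cx3cr1 and Csf1r overlapped between the WT groups. The 4 choroid plexus markers summed to 3.98 to 1323 over the 16 libraries. Depth, which the files do not state, was estimated from low values at 4.73 to 19.7 M reads in these libraries, with group means of 8.42 in WT-NS, 10.9 in WT-ST, 9.10 in Cko-NS and 15.0 in Cko-ST. The part of cell mixture and depth in the stroke differences was not tested, and in bulk libraries fewer cells of a type and less RNA per cell cannot be told apart. The targeted gene Gpr124 was 2.65 to 7.58 RPKM in WT-NS, 2.92 to 8.12 in WT-ST, 0.994 to 4.85 in Cko-NS and 0.50 to 1.72 in Cko-ST, although 3′ reads check a deletion only where it removes them. The 4.85 is the library labelled Cko-NS 4, which lay above WT-NS 1, 3 and 4. Sex-linked RNA went against the labelled sex in that library and in the one labelled Cko-ST 3, and whether either was mislabelled was not tested. Y-linked RNA lay above 10 RPKM in 2 stroke libraries, Cko-NS 4 (189) and Cko-ST 4 (249), and was 0.423 in Cko-ST 3. Every WT-NS and WT-ST library was below that level, so it was passed only in Cko. When Cko-NS 4 and Cko-ST 3 were omitted, 18 proteasome genes rose in WT and 10 in Cko, all of the 10 among the 14. Psma6 was then called in Cko-NS against WT-NS.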

How the data were processed

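RPKM values for 24260 gene rows were deposited by the authors, each library in its own column. The build was mm10, per the submitters' processing notes. No source used here gives the aligner, gene lengths or strand setting. Per the labels' protocols, the 16 stroke libraries were 3′ tag libraries from polyadenylated RNA and the other 5 were whole-transcript libraries from total RNA. Gene names held by more than 1 row (23 names, 54 rows) were dropped, and 8 columns of no described sample were not used.

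With R 4.3.3 and limma 3.58.1, log2(RPKM + 1) of genes with a mean of at least 1 RPKM was fitted by group, with an intensity trend, in all 16 stroke libraries (9838 genes) and separately in the other 5 (11252 genes). Two-sided p-values were adjusted by Benjamini and Hochberg's method across each fit. A fold change on this scale understates low genes. Named genes were those past the threshold, or the 12 with the lowest p where more passed, the 4 largest changes of each comparison, Psmb5, Psmb6, Psmb7, Psmd14, the most and least abundant, and up to 4 per related list. The members and lists were chosen with earlier results of these data known. Some genes of the related lists are not reported here.

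Replicate numbers are shared between groups. The correlation of same-numbered libraries' deviations from their group means was 0.012 to 0.130 between WT-NS and WT-ST, and 0.100 to 0.214 between Cko-NS and Cko-ST. Each of the 4 in Cko exceeded 0.1, so the numbers were taken as paired there, from the data and not from the labels. The WT values were all above 0 too. Between different-numbered libraries the correlation ran from -0.112 to 0.034 in WT and from -0.162 to 0.054 in Cko. The cut at 0.1 therefore does not settle whether WT was paired. Calls in both genotypes come from the fit without a block unless a block is named. Depth was estimated from 11834 genes as the read number that made the most low values whole (within 0.02), which held for 31.8% to 38.0% of values in stroke libraries and 16.9% to 19.9% in the others, against 4% by chance. It is rough, and no counts were tested. The median estimated reads per stroke library ranged from 57 for Psmd13 to 1984 for Psma3. These estimates use the longest transcript length of each gene, so their ranking carries that choice. Gene overlaps were read from GENCODE M21 and promoters from RefSeq (GRCm38.p6) with Python 3.11.15.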

Additional observations from a re-analysis of the deposited data

Results flagged for a closer look

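Over the 35 tested genes and their sum in each of 4 groups, in 6 of 144 sets of 4 libraries 1 library stood far from the other 3 by Dixon's criterion, which chance does in about 1 of 20 groups. In WT-NS, Psma2 was 63.8 RPKM in library 4 (38.2 to 42.5 in the others), Psma5 was 6.71 in library 3 (17.1 to 19.1) and Psmd14 was 17.8 in library 3 (12.1 to 12.8). In WT-ST, Psma4 was 40.7 in library 1 (64.1 to 68.7). In Cko-NS, Psmc6 was 56.2 in library 3 (29.6 to 32.3), and in Cko-ST, Psmd2 was 33.5 in library 2 (24.3 to 25.8).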

How the results depend on the processing

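The count of proteasome genes that rose after stroke in WT was 14 to 19 over 17 alternatives, and 14 to 17 when each library was left out in turn. In Cko it was 5 to 12 without 1 library each and 6 with only the 8 libraries of the comparison. Median-of-ratios scaling gave 20 in Cko, moved the median of all genes there from -0.13 to -0.01 and the split of all calls from 634 higher and 857 lower to 868 and 599, and the median of the proteasome genes became 0.72. In Cko-NS against WT-NS, 1 gene rose (Psma6) with the 2 libraries against their labelled sex omitted and with Y-linked RNA as a covariate, and 0 to 1 without 1 library each. No alternative called a proteasome gene in the other 3 comparisons, and no called gene changed direction. Under every alternative tried, 11 of the 17 WT calls were kept (Psmb2, Psmb4, Psmb6, Psmb7, Psmc2, Psmc3, Psmc4, Psmc5, Psmd1, Psmd3 and Psmd14) and 4 of the 14 Cko calls (Psmb7, Psmd1, Psmd11 and Psmd14). With the replicate block 19 rose in WT and 13 in Cko. With a replicate block nested within genotype, chosen after seeing the data, 19 and 14 did, of which 17 and 12 were called without it; it added Psmd7 and Psma4 in WT and Psmd12 and Psma2 in Cko and lost Psma1 and Psmc6 in Cko. The Ctnnb1 experiment had 0 calls with the replicate block as well. In the stroke libraries 2 members had a median under 100 estimated reads, and the part of depth in the spread of the values was not tested. The causes of these shifts were not tested.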
